A study of Mus musculus with 8 samples.

Results

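The mouse genes described here are 10 genes used as macrophage and monocyte markers or products: the lysozymes Lyz1 and Lyz2, galectin-3 (Lgals3), Cd14, Csf1r, Cd68, Adgre1, Mpeg1, C1qa and C1qb. Every probe set with one of these gene symbols in the array's annotation was taken, which gave 16 of the 22690 probe sets, and 0 of the 16 carried several joined symbols. The splenic tumors came from 3 nude mice injected intravenously with FL5.12 cells, pro-B cells from the mouse that are grown with IL-3 and here stably expressed Bfl-1DC and p53DD; the parental sample was that same transfected line before injection. Both groups therefore share the Bfl-1DC and p53DD transfection, and no untransfected cells or normal spleen were analysed here. Each of the 3 tumors and the parental line was measured on 2 Affymetrix Mouse Genome 430A_2.0 arrays numbered 1 and 2 in the labels, 8 arrays in all. Bfl-1 is an anti-apoptotic member of the Bcl-2 family, and p53DD is a dominant-negative fragment of p53. Nude mice lack a functional thymus and keep their macrophages, monocytes and granulocytes. The labels name the tumor samples as tumor cells from the spleen and describe one culture protocol for all samples, and they do not say whether the tumor cells were cultured or sorted before RNA was extracted.

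Macrophages and monocytes are phagocytes that engulf particles and break them down in lysosomes. They secrete lysozyme, which cuts bacterial cell walls, and galectin-3, a lectin that binds galactose-containing sugars; neutrophils also make lysozyme, and galectin-3 is made by many cell types. CD14 is a co-receptor for bacterial lipopolysaccharide, the CSF1 receptor carries the survival signal of the macrophage lineage, and the product of Adgre1, EMR1, is a surface marker of mouse macrophages.

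Values are MAS5 signals, the brightness summary the authors deposited for each probe set, scaled so that every array had the same trimmed mean of 150.06. The 40th percentile of the signals was between 15.6 and 20.6 on the 8 arrays and is used as the level under which a probe set was treated as dim. A probe set was tested where it passed that level on at least 2 of 8 arrays, which 14897 probe sets did. Of the 16 probe sets, 10 were tested, for 7 of the 10 genes, and Mpeg1, C1qa and C1qb were left out whole. Both Lyz1 probe sets that were tested and that of Cd14, 3 in all, passed through the tumor arrays alone, so they could hardly fail to be higher there. In bulk RNA, fewer cells of a type and less RNA per cell cannot be told apart.

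Lyz2, the 2 tested Lyz1 probe sets, Cd14 and galectin-3 were higher in tumors than in parental cells. The other tested genes were not called in either direction. The tested Lyz1 probe sets can match other transcripts, and the remaining one was dim and not tested. A rise of Lyz1 itself therefore cannot be read. With the array number as a block, galectin-3 alone was called: the adjusted p in limma was 0.00138 for Lgals3, 0.185 for Lyz2, 0.119 and 0.186 for Lyz1 and 0.148 for Cd14. The comparison asks how expression differed between the splenic tumors and the cells they were grown from. It set the means of the 3 tumors against the 2 parental arrays on log2(signal + 16) in limma, and called an adjusted p under 0.05. In all, 104 of 14897 probe sets were called, 0.698% of those tested, and 74 of them, 0.497%, were higher in tumors and 30 lower. With each array centred on its median, which put the median log2 difference of all probe sets at -0.10, 67 were higher and 44 lower, and the same number of probe sets of these genes was called. Of the 10 tested probe sets of these genes, 5 were called higher and 0 lower: 2 of Lyz1 and 1 each of Lyz2, Lgals3 and Cd14. Their median log2 difference was 1.75, beside 0.01 over all probe sets tested. Both tested Lyz1 probe sets and that of Cd14 were kept through the tumor arrays alone. Neither this median nor the count called is free of that filter. The labels do not give separate cultures for the parental pair. The p-values measure the spread among these samples, which for the parental pair may be technical. In the fit without the block the 2 arrays of each tumor were averaged first, so the difference between them does not enter directly.

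**Figure D1:**
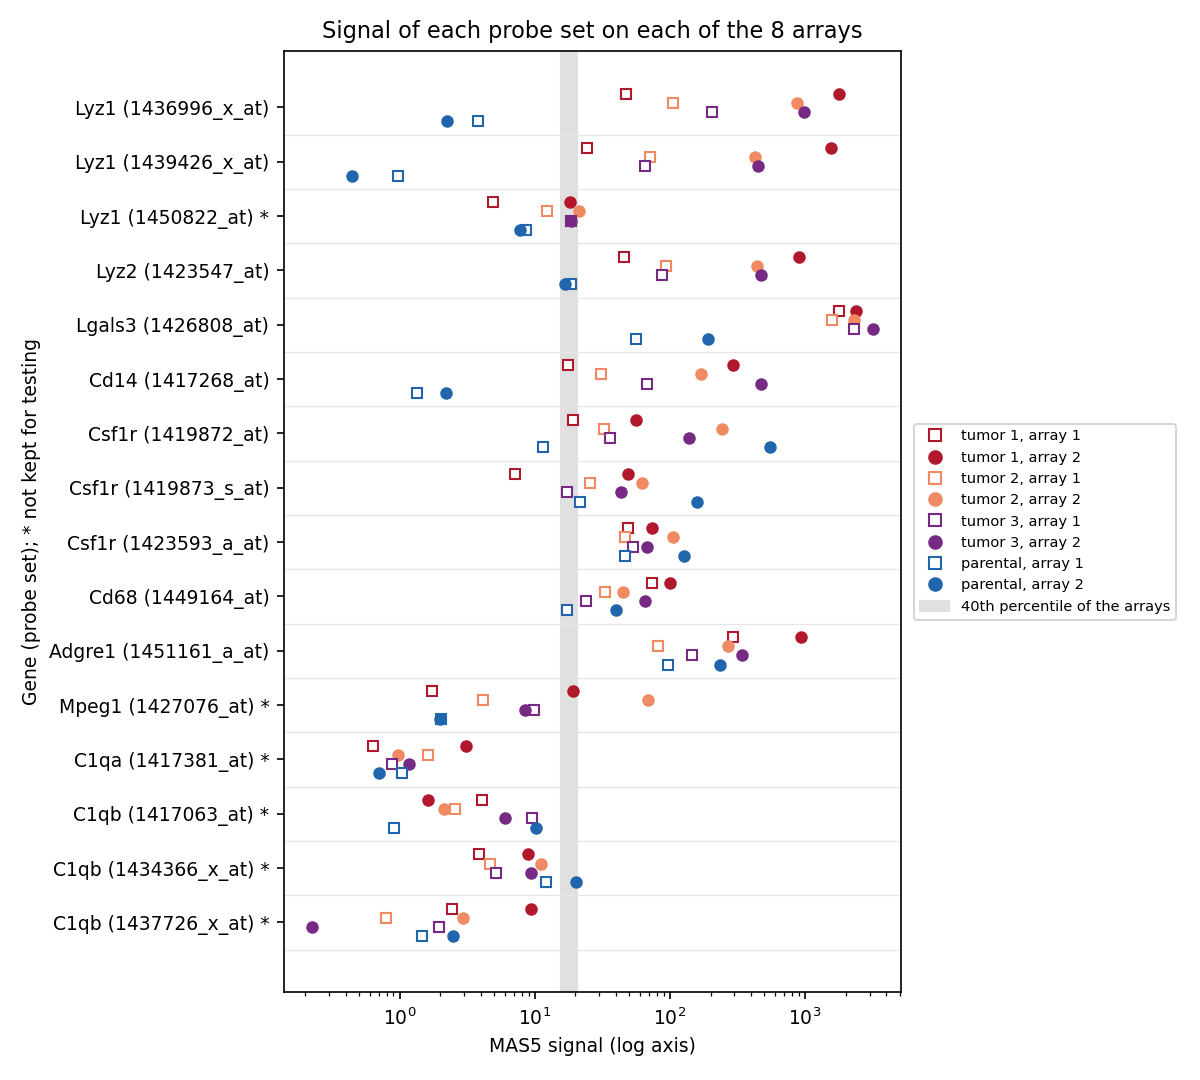
MAS5 signal (horizontal, log axis) of each of the 16 probe sets on each of the 8 arrays, with open squares for array 1, filled circles for array 2, and the band of 40th percentiles from 15.6 to 20.6 shaded. The tested lysozyme, Lgals3 and Cd14 probe sets have all 6 tumor arrays above both parental arrays, Lyz1 1450822_at overlaps between the groups, and the probe sets marked with an asterisk were not kept for testing.

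The 2 lysozyme genes are closely related neighbours, and their start regions are shown because the tested probe sets of both genes behaved alike. The 2 tested Lyz1 probe sets have probes that can match other transcripts, so this likeness cannot be ascribed to both genes. The other Lyz1 probe set, 1450822_at, was dim and overlapped between the groups. In RefSeq on GRCm38.p6, Lyz2 lies at chr10:117277541-117282272 and Lyz1 at chr10:117287795-117292868, with 5522 bases between them, both on the minus strand. The 250 bases before each start were read from the RefSeq promoter table, Lyz2 at chr10:117282273-117282522 and Lyz1 at chr10:117292869-117293118, each given 5′ to 3′ on the gene's strand. Capitals mark the 5 runs of at least 10 bases that are identical at the same position in both.
Lyz2: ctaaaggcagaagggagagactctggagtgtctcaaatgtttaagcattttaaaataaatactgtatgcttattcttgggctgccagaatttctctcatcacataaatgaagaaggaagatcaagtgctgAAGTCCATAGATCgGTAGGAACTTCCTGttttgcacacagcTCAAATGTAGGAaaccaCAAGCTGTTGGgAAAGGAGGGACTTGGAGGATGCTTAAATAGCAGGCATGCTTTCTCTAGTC
Lyz1: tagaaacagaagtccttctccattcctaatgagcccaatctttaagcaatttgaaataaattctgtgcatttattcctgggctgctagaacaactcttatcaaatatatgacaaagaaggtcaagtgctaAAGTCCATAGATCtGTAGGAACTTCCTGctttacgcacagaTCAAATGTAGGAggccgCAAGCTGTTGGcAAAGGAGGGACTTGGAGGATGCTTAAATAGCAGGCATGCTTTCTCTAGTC
The bases were identical at 152 of 250 positions. The likeness was concentrated near the start: 92 of the last 100 positions were identical, against 60 of the first 150, and the longest identical run of 50 bases ended at the start itself.

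Lyz2, the lysozyme of macrophages and other myeloid cells (probe set 1423547_at), had signals on arrays 1 and 2 of tumor 1 of 45.7 and 903, in tumor 2 of 93.2 and 437 and in tumor 3 of 86.7 and 475, against 18.5 and 16.6 in parental cells. All 6 tumor arrays were above both parental arrays, as were those of all 5 called probe sets and of 9.35% of all tested, and in each tumor array 2 was several times brighter than array 1. The mean signal was 340 ± 117 in tumors (SD, n = 3) and 17.6 ± 1.31 in parental cells (SD, n = 2 arrays). On the log2(signal + 16) scale, which understates changes of dim probe sets, the difference was 2.77 ± 0.15 (SE), with an adjusted p of 0.00105 in limma, and 0.185 with the array number as a block.

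Lyz1, the lysozyme of Paneth cells of the gut, was read by 3 probe sets. Probe set 1436996_x_at had signals in tumor 1 of 47.0 and 1779, in tumor 2 of 105 and 866 and in tumor 3 of 205 and 983, against 3.83 and 2.26 in parental cells. All 6 tumor arrays were bright and both parental arrays were dim, so the groups did not overlap. The log2 difference was 4.29 ± 0.21 (SE), with an adjusted p of 0.000655 in limma, and 0.119 with the block. Probe set 1439426_x_at had signals in tumor 1 of 24.5 and 1555, in tumor 2 of 71.4 and 429 and in tumor 3 of 65.6 and 448, against 0.968 and 0.447 in parental cells. Here too the groups did not overlap, with a log2 difference of 3.67 ± 0.18 (SE) and an adjusted p of 0.000655 in limma, and 0.186 with the block. The suffix x marks a probe set with probes that can match other transcripts, so whether these signals came from Lyz1 or from Lyz2 cannot be told apart here. The remaining one, 1450822_at, has no such suffix, and its signals lay between 4.93 and 21.2 on the tumor arrays, against 8.66 and 7.71 in parental cells. It was near or under the dim level on all arrays, overlapped between the groups and was not tested.

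Of the genes called, galectin-3 differed least between the duplicate arrays of the tumors. Lgals3 (1426808_at) had signals in tumor 1 of 1782 and 2401, in tumor 2 of 1593 and 2311 and in tumor 3 of 2313 and 3179, against 56.5 and 192 in parental cells. All 6 tumor arrays were far above both parental arrays, and the parental pair itself differed clearly. The mean signal was 2263 ± 424 in tumors (SD, n = 3) and 124 ± 95.6 in parental cells (SD, n = 2 arrays), a log2 difference of 4.18 ± 0.43 (SE) with an adjusted p of 0.0142 in limma. Galectin-1 (Lgals1), another galactose-binding lectin, averaged 5567 ± 777 in tumors and 4511 ± 330 in parental cells and was not called (log2 difference 0.28, adjusted p = 0.501 in limma). Lgals7, a galectin known mainly from skin epithelium, was also higher in tumors, at 186 ± 68.7 against 11.0 ± 2.64 in parental cells (log2 difference 2.84, adjusted p = 0.0142 in limma), and it was kept for testing through the tumor arrays alone. Of 7 measured genes of the list of galectins and their ligands, Lgals7 was the 1 called, and the list's median log2 difference was 0.20.

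Cd14 (1417268_at) had signals in tumor 1 of 17.6 and 292, in tumor 2 of 31.0 and 171 and in tumor 3 of 67.7 and 473, against 1.35 and 2.22 in parental cells. The groups did not overlap, although the first array of tumor 1 was close to the dim level. The mean was 175 ± 86.5 in tumors (SD, n = 3) and 1.78 ± 0.616 in parental cells (SD, n = 2 arrays), a log2 difference of 2.81 ± 0.34 (SE) with an adjusted p of 0.0265 in limma, and 0.148 with the array number as a block. Of 9 measured genes of CD14 and Toll-like receptor signalling, 0 were called in limma, with a median log2 difference of 0.30. The 3 with the lowest p were Tlr4, the lipopolysaccharide receptor that works with CD14 (0.80, adjusted p = 0.230), the adaptor Myd88 (0.49, adjusted p = 0.235) and Tlr2, which binds bacterial lipoproteins (0.52, adjusted p = 0.247).

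For Csf1r the groups overlapped in all 3 probe sets, and the brightest array was a parental one each time. Probe set 1419872_at had signals in tumor 1 of 19.1 and 56.4, in tumor 2 of 32.5 and 243 and in tumor 3 of 36.3 and 139, against 11.5 and 555 in parental cells. The 2 parental arrays thus held both the lowest and the highest value of the 8, and the log2 difference of -0.65 ± 1.14 (SE) had an adjusted p of 0.828 in limma. Without parental array 2 this difference was 1.54, so its sign rests on that array. Probe set 1419873_s_at ranged from 7.14 to 62.5 on the tumor arrays, against 21.5 and 158 in parental cells (log2 difference -0.81, adjusted p = 0.551 in limma). Probe set 1423593_a_at ranged from 46.3 to 105 on the tumor arrays, against 46.2 and 128 in parental cells (log2 difference -0.25, adjusted p = 0.771 in limma). Of 12 measured genes of the CSF1 receptor pathway and myeloid growth factor receptors, 0 were called in limma. Spi1, which encodes PU.1, a transcription factor that myeloid and B cells need, averaged 342 ± 92.4 in tumors and 143 ± 12.7 in parental cells (log2 difference 1.09, adjusted p = 0.116 in limma). The lipid phosphatase gene Inpp5d had a log2 difference of -0.55 (adjusted p = 0.285) and the transcription factor gene Runx1 one of 0.23 (adjusted p = 0.514).

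Cd68, a lysosomal membrane glycoprotein of macrophages (1449164_at), had signals in tumor 1 of 74.1 and 99.3, in tumor 2 of 32.8 and 44.7 and in tumor 3 of 24.0 and 65.0, against 17.3 and 39.7 in parental cells. Tumor 1 was above both parental arrays on each of its arrays, whereas the first arrays of tumors 2 and 3 lay between the parental values. The log2 difference was 0.66 ± 0.34 (SE), with an adjusted p of 0.408 in limma. Of 15 measured genes for lysosomal enzymes and membrane proteins, 0 were called in limma, 11 were above 0, and the median log2 difference was 0.24. The lowest p of the list belonged to Ctsz, which encodes the protease cathepsin Z (0.92, adjusted p = 0.133), then to Hexa, a subunit of hexosaminidase (0.79, adjusted p = 0.226) and Gusb, β-glucuronidase (0.58, adjusted p = 0.230).

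Adgre1, the gene of the macrophage surface receptor EMR1 (1451161_a_at), had signals in tumor 1 of 295 and 936, in tumor 2 of 81.0 and 268 and in tumor 3 of 146 and 341, against 96.9 and 237 in parental cells. It was well above the dim level in the parental cells too, and tumors 2 and 3 overlapped with them while tumor 1 was higher on both arrays. Over the 3 tumors the log2 difference was 0.72 ± 0.54 (SE), with an adjusted p of 0.566 in limma. When the array number was a block, tumor 1 differed from parental cells by 1.69 ± 0.17 (SE; adjusted p = 0.00244 in limma), tumor 2 by -0.03 and tumor 3 by 0.51, and neither of these 2 was called. Of the listed relatives, adhesion receptors and perforin-like proteins together, 4 were measured, all of them adhesion receptors, and 0 were called in limma. The perforin-like genes C6, C8a, C8b and C9 passed the 40th percentile on no array. Adgre5, which encodes CD97, was at 247 and 478 on the arrays of tumor 1 and at 211 and 247 on those of tumor 3, but at 2.81 and 8.88 in tumor 2, against 2.47 and 11.4 in parental cells (log2 difference 2.46, adjusted p = 0.353 in limma).

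Mpeg1 and the C1q chains were dim on most or all arrays. Mpeg1, a pore-forming protein of phagocyte lysosomes (1427076_at), had signals in tumor 1 of 1.75 and 19.3, in tumor 2 of 4.17 and 68.6 and in tumor 3 of 9.83 and 8.46, against 2.02 and 1.98 in parental cells. Only the second array of tumor 2 stood clearly above the dim level, and the groups overlapped. C1qa, a chain of the complement recognition protein C1q (1417381_at), reached at most 3.09 on any array. C1qb, another chain, reached at most 10.2 with 1417063_at and at most 9.37 with 1437726_x_at. With its probe set 1434366_x_at the tumor arrays ranged from 3.84 to 11.1, against 12.1 and 20.2 in parental cells, so both parental arrays were the higher ones. In all, 3 of the 16 probe sets, those of C1qa and 2 of C1qb, passed the 40th percentile on no array, and C1qc did so on none either. Of 9 measured genes of complement C1 and complement receptors, 0 were called in limma, with a median log2 difference of 0.51, and the 3 with the lowest p were Calr (0.69, adjusted p = 0.120), C1s1 (0.87, adjusted p = 0.235) and Itgb2 (0.80, adjusted p = 0.378).

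The start region of C1qb is shown beside those of the lysozymes because it holds a short core of the PU.1 binding motif, GAGGAA, although 2 of the gene's 3 probe sets were dim on all arrays and the other was above the dim level on 1 parental array alone. The 250 bases before its start are chr4:136886201-136886450 on the minus strand of GRCm38.p6, from RefSeq, with the motif in capitals.
C1qb: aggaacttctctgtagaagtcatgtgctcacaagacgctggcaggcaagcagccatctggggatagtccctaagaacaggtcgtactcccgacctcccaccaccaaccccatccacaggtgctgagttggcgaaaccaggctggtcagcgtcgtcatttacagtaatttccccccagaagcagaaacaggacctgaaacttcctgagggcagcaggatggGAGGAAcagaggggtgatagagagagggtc
Searched on both strands, GAGGAA occurred in 2 of the 6 start regions of these genes in the table, those of C1qb and Cd68, and in 23.3% of all 32851 start regions of the same length. The table had none for Cd14, Csf1r, Adgre1 and C1qa. The letters of a motif are not evidence that the factor was bound.

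The 2 arrays of a tumor differed strongly for these genes, and in the same direction in all 3 tumors. All 10 tested probe sets were higher on array 2 than on array 1 in all 3 tumors, which 24.9% of all tested probe sets were, and 7 of 10 were higher on it in all 4 sources, as 19.6% of all tested were. In a limma test of the 3 within-tumor differences against 0, 7 of the 10 were called higher on array 2, beside 2.66% of all tested. The exceptions were Lgals3 (log2 difference 0.47, adjusted p = 0.0638), Cd68 (0.56, adjusted p = 0.0974) and the Csf1r probe set 1423593_a_at (0.57, adjusted p = 0.0848). What the numbers 1 and 2 stand for beyond a duplicate is not stated in the labels. With a pseudocount of 1, no filter or a trended prior in limma, 0 of them were called. All 10 had an unadjusted p under 0.05 with the pseudocount of 1 and with the trended prior. So did 4000 and 4515 of all 14897 probe sets tested, in the same order.

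The size of the difference between duplicates separated the genes. The log2 difference between array 2 and array 1 in tumors averaged 3.29 and 3.38 for Lyz1, 2.74 for Lyz2 and 2.58 for Cd14, with adjusted p-values of 0.0337, 0.0385, 0.0310 and 0.0248 in limma. In parental cells, where both arrays were dim or near it for these genes, the difference was -0.12 and -0.04 for Lyz1, -0.08 for Lyz2 and 0.07 for Cd14. For Csf1r 1419872_at it averaged 1.68 in tumors (adjusted p = 0.0346 in limma) and was 4.37 in parental cells. Adgre1 differed by 1.44 in tumors (adjusted p = 0.0248 in limma) and by 1.16 in parental cells, so its duplicates were apart in all 4 sources by a like amount. The tumor differences were also set against the single parental one, a comparison chosen after seeing the data, and the directions were mixed. They were larger by 3.41 and 3.42 for Lyz1, 2.82 for Lyz2, 2.51 for Cd14 and 0.27 for Adgre1. The others were negative: -1.05 for Lgals3, -0.18 for Cd68 and -2.70, -1.14 and -0.64 for Csf1r. The parental difference is a single pair, so its own spread is not known and no call is drawn from it. With the parental pair added to those of the tumors, also chosen after seeing the data, 9 of 10 were called higher on array 2, beside 7.63% of all tested.

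**Figure D2:**
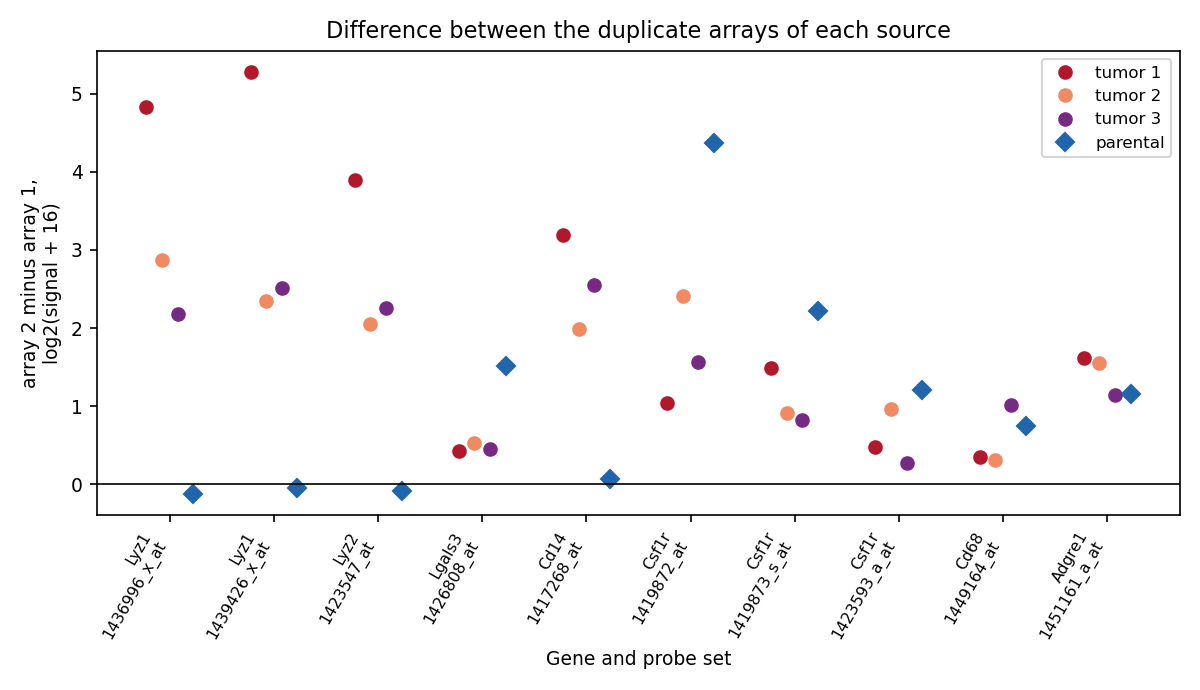
Difference in log2(signal + 16) between array 2 and array 1 of each source (vertical) for the 10 tested probe sets (horizontal), with circles for the 3 tumors and diamonds for parental cells. The lysozyme and Cd14 points of the tumors lie far above 0 while the parental points lie near 0, and for Csf1r 1419872_at the parental point at 4.37 is above those of the tumors.

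The array number therefore bears on how firmly the lysozymes and Cd14 can be called. With the number as a block and the source as a random block, 1 of 10 was called higher, Lgals3 (log2 difference 4.18, adjusted p = 0.00138 in limma), beside 0.436% of all tested. Lyz2, both Lyz1 probe sets and Cd14 had the same log2 differences as without the block and were not called. This fit takes the shift between array numbers to be the same in tumors and parental cells. For Lyz2 that shift was 2.74 in tumors and -0.08 in parental cells. Its SE was 0.825 with the block and 0.148 without it. How far the unequal shift accounts for the lost calls was not tested. Among arrays of number 1 alone, the log2 difference was 1.36 for Lyz2, 2.58 and 1.96 for Lyz1, 1.55 for Cd14 and 4.70 for Lgals3. Among arrays of number 2 alone it was 4.17 for Lyz2, 6.0 and 5.38 for Lyz1, 4.06 for Cd14 and 3.66 for Lgals3. All of these were above 0 at both numbers, and Lgals3 alone was called at both (adjusted p = 0.0225 and 0.0352 in limma), beside 0.0336% and 0.0604% of all tested called higher. At number 2 alone Lyz1 1436996_x_at was called as well (adjusted p = 0.0352), and the lone parental array is assumed there to vary like the tumors.

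**Figure D3:**
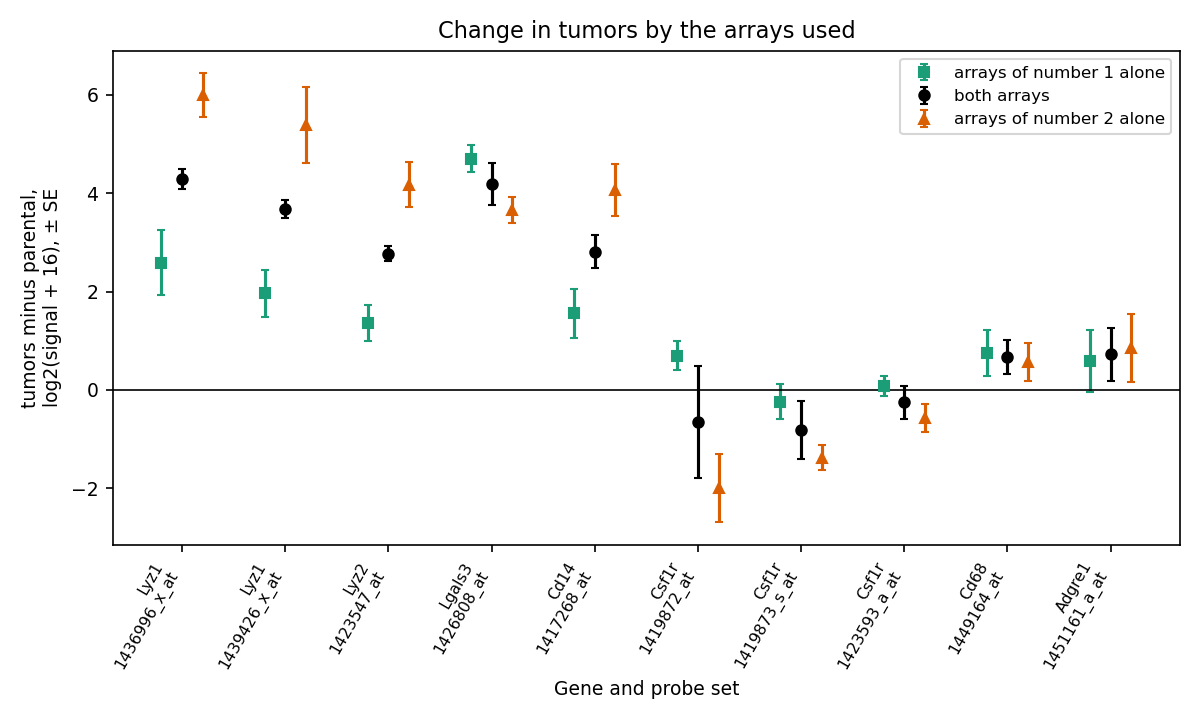
Difference between tumors and parental cells in log2(signal + 16), with bars for ± 1 SE, for the 10 tested probe sets from arrays of number 1 alone (squares), both arrays (circles) and arrays of number 2 alone (triangles). Lgals3 lies between 3.66 and 4.70 in all 3, while Lyz2 is 1.36 at number 1 and 4.17 at number 2.

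Leaving out single arrays cost some calls of the lysozymes and Cd14 and none of Lgals3. In each fit that left out a whole tumor all 5 probe sets stayed called. Lgals3 was called in 11 of 11 fits that left out a tumor or an array, with log2 differences from 3.42 to 4.94. Without array 1 of tumor 1 the adjusted p was 0.114 for Lyz2, 0.0510 and 0.125 for Lyz1 and 0.0585 for Cd14. Without array 2 of tumor 1 it was 0.200 for Lyz2, 0.158 and 0.177 for Lyz1 and 0.237 for Cd14, all in limma. Lyz2 was also not called without array 2 of tumor 3 (adjusted p = 0.0608). Cd14 was also not called without parental array 1 (0.144), parental array 2 (0.156), array 2 of tumor 2 (0.147) or array 1 of tumor 3 (0.108).

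Each tumor was also set against the parental cells on its own, with the spread between duplicates as the error, in 3 comparisons that share the parental arrays. Lgals3 was the 1 of 10 called in each, with log2 differences of 4.09 in tumor 1, 3.98 in tumor 2 and 4.47 in tumor 3 and adjusted p-values of 0.00542, 0.00637 and 0.00228 in limma. The shares of all probe sets called higher were 1.73%, 0.973% and 1.66% in tumors 1, 2 and 3. Lyz2 differed by 2.83, 2.73 and 2.74 in the same order, almost alike when the duplicates of a tumor were averaged, but with an SE of 1.26 in each. With the number as a block, 6 of 10 were called higher in tumor 1 (Lgals3, both Lyz1 probe sets, Cd14, Cd68 and Adgre1), 1 in tumor 2 (Lgals3) and 3 in tumor 3 (Lgals3, Cd14 and Lyz1 1436996_x_at), beside 6.89%, 3.5% and 5.22% of all tested. In a test of differences among the 3 tumors 0 of 10 were called in limma, beside 1.26% of all tested. At an unadjusted p under 0.05 there were 0 of 10 in that test, beside 1737 of all 14897 tested. With the number as a block Adgre1 was called there (adjusted p = 0.00651), highest in tumor 1, beside 5.28% of all tested. Each tumor is 1 mouse, so the error of these tests is the spread between duplicate arrays and leaves out the spread between animals.

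The patterns most like those of Lyz2 and Lgals3 are given as descriptions. Over the 8 arrays, the genes with the highest Pearson correlation to Lyz2 on log2(signal + 16) were Lyz1 (0.997), Srpk2 (0.974), Zfp623 (0.971), Ceacam10 (0.969) and Hgh1 (0.963), and Cd14 had 0.960. Over the 6 tumor arrays alone they were Lyz1 (0.994), Lynx1, Uqcc3, Cndp2 and Tmem9b (0.989), and apart from Lyz1 none was in the first list. For Lgals3 they were Lpp (0.991), Tmc4, Ndrg1, Clta and Fbp2 over the 8 arrays, and Rps3a1 (0.997), Auts2, Bud31, Cyp2d13 and Rbp3 over the 6 tumor arrays, with none in both lists. Lyz2 and Lgals3 correlated at 0.744 over the 8 arrays. Both Lyz1 values above are those of 1439426_x_at, which has probes that can match other transcripts. Its likeness to Lyz2 therefore cannot be ascribed to both genes. The arrays share sources and numbers, so they are not independent points.

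Other markers of the macrophage surface were mixed. Of 28 listed genes 16 were measured, and the median log2 difference was 0.48. In limma 1 was called higher in tumors and 0 lower, beside 0.497% of all tested called higher. The 1 called was Ccr2, a chemokine receptor of inflammatory monocytes, with signals in tumor 1 of 235 and 530, in tumor 2 of 570 and 684 and in tumor 3 of 1000 and 1158, against 2.38 and 5.20 in parental cells (log2 difference 5.01 ± 0.42 SE, adjusted p = 0.00697 in limma). Its groups were far apart, and it was kept for testing through the tumor arrays alone. Array 2 was above array 1 in every source. Itgam, the CD11b integrin chain of myeloid cells, averaged 133 ± 79.4 in tumors and 9.34 ± 1.65 in parental cells (log2 difference 2.24, adjusted p = 0.0853 in limma). Clec7a, the β-glucan receptor, averaged 48.9 ± 12.1 in tumors and 7.08 ± 8.64 in parental cells (log2 difference 1.41, adjusted p = 0.101 in limma). Itgam and Clec7a were also kept for testing through the tumor arrays alone, as were Fcgr1, Fcgr4, Vsig4 and Cd33 of this list. The list's median is therefore not free of that filter. Of the 27 listed genes on the array, Marco, Cd163, Siglec1, Mertk, Cd36, Ms4a7 and Spic, 7 in all, passed the 40th percentile on no array. The list's summed signal ran from 2494 to 12948 on the tumor arrays, against 1569 and 4497 on the parental arrays. On array 2 of the tumors 7 of 16 were called higher, beside 2.66% of all tested.

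Some granulocyte genes were also higher in the tumors, and neutrophils are known to make lysozyme and CD14 as well. Of 11 measured neutrophil markers 2 were called higher and 0 lower, beside 0.497% of all tested called higher. All 11 were above 0, and the median log2 difference was 1.92. Ltf, S100a8, S100a9, Lcn2, Cd177 and Elane among them were kept for testing through the tumor arrays alone. They could hardly fail to be above 0, and the median is not free of that filter. The list's summed signal ran from 4181 to 10597 on the tumor arrays, against 845 and 337 on the parental arrays. Camp and Cxcr2 passed the dim level on no array. Ngp, a protein of neutrophil secondary granules, had signals in tumor 1 of 599 and 5263, in tumor 2 of 94.0 and 1068 and in tumor 3 of 714 and 2170, against 25.1 and 24.5 in parental cells. It was higher on array 2 in each tumor, as the lysozymes were (array 2 minus array 1, log2 difference 2.66, adjusted p = 0.0287 in limma), and it was called in tumors against parental cells (4.50 ± 0.64 SE, adjusted p = 0.0414). Mpo, the myeloperoxidase of primary granules, was at 1560 to 3401 on the tumor arrays, against 12.1 and 16.4 in parental cells (log2 difference 6.19 ± 0.23 SE, adjusted p = 0.000279 in limma). Of 5 measured eosinophil markers 2 were called higher, Epx (eosinophil peroxidase, 7.05) and Prg2 (major basic protein, 5.78), both kept for testing through the tumor arrays alone, and the list's summed signal ran from 3707 to 8266 on the tumor arrays, against 45.6 and 40.2 on the parental arrays. The part of these cell types in the lysozyme, galectin-3 and Cd14 signals was not tested.

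**Figure D4:**
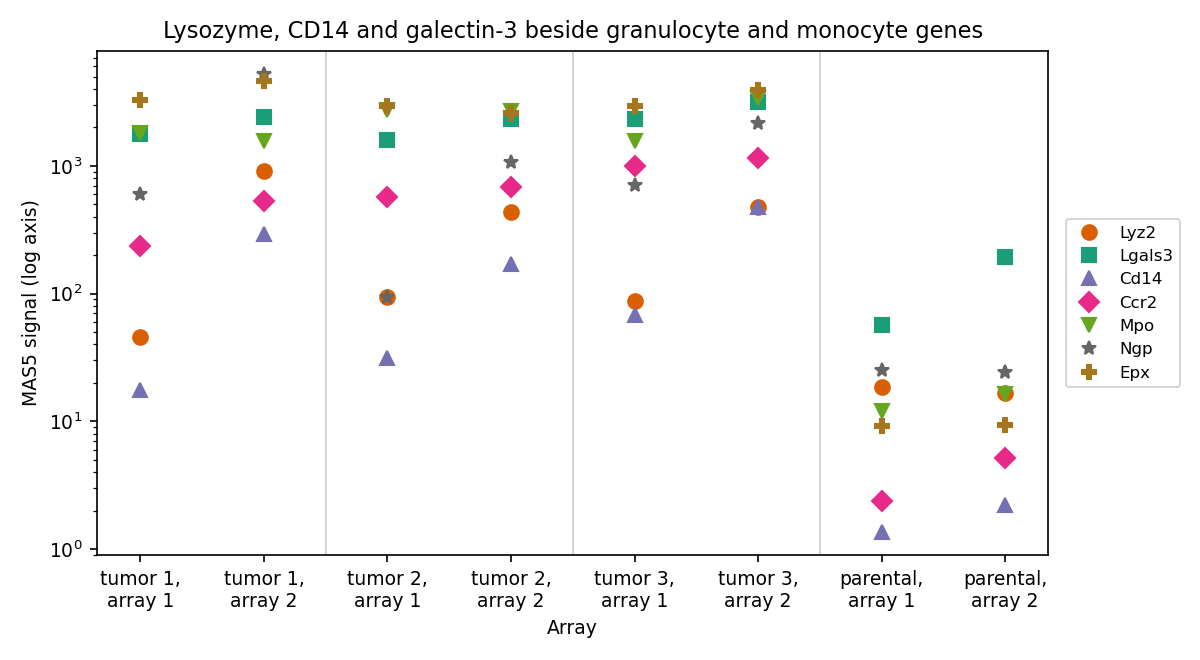
MAS5 signal (vertical, log axis) of Lyz2, Lgals3, Cd14, Ccr2, Mpo, Ngp and Epx on each of the 8 arrays (horizontal), tumors to the left and parental cells to the right. In each tumor Lyz2, Cd14 and Ngp are higher on array 2 than on array 1, while the parental arrays hold all 7 genes at 192 or less.

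Markers of other cell types that a spleen holds were read in the same way. Of the dendritic cell and MHC class II markers 2 were measured and 0 were called in limma, with summed signals of 84.3 to 172 on the tumor arrays, against 105 and 107 on the parental arrays, and Itgax, Zbtb46, Ccr7, H2-Ab1 and Ciita passed the dim level on no array. Of 3 measured T cell markers 1 was called higher, Cd3g (log2 difference 4.46, adjusted p = 0.00112 in limma), with summed signals of 884 to 2624 on the tumor arrays, against 114 and 176 on the parental arrays, and Cd3e, Cd247, Cd4, Cd8b1 and Cd28 dim on all arrays. Erythroid markers had 0 of 5 called, with summed signals of 702 to 2485 on the tumor arrays, against 2447 and 1630 on the parental arrays. Mast cell and basophil markers had 0 of 5 called, with summed signals of 2080 to 10288 on the tumor arrays, against 949 and 4066 on the parental arrays. The highest sums, 7318 and 10288, were those of tumor 1. Fcer1a was at 5067 and 6654 there, against 16.3 to 50.9 in tumors 2 and 3 and 2.10 and 189 in parental cells. The label pro-B cell was checked too: of 5 measured precursor-B markers Cd79b was called higher in tumors (log2 difference 1.31, adjusted p = 0.0414 in limma). Cd79a averaged 202 in tumors and 91.5 in parental cells and was not called (0.97, adjusted p = 0.156 in limma). Ebf1, Vpreb1, Rag1, Rag2, Dntt, Blnk and Bst1, from the same list, passed the 40th percentile on no array of either group. The cytoskeletal control Actb averaged 5140 ± 369 in tumors and 4517 ± 802 in parental cells (log2 difference 0.17, adjusted p = 0.694 in limma).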

How the data were processed

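Total RNA was hybridised to 8 one-colour Affymetrix arrays. The deposited table holds one MAS5 signal, an intensity on a linear scale, per probe set and array, per the submitters' processing notes; its version is not given in the sources used here. On every array the 2% trimmed mean was 150.06, so the values were already scaled, and they were not renormalised. The number of arrays limits the precision. Gene symbols came from the platform annotation: of 22690 probe sets, 20380 had 1 symbol, 691 several, 1555 none and 64 were controls.

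Values were taken as log2(signal + 16). Probe sets above the 40th percentile of an array on at least 2 of 8 arrays were kept. Tests used limma 3.58.1 in R 4.3.3 (lmFit, eBayes, two-sided), with Benjamini-Hochberg adjustment over all 14897 kept probe sets, and were tested on simulated data. The 2 arrays of a tumor were averaged for tumors against parental cells. Arrays of the same number deviated together in all 6 pairs of sources (correlations of 0.434 to 0.594 between deviations from the source means), which makes the number a pairing of arrays, and fits with it as a block are given. The genes and marker lists were chosen with earlier results of these data known. Named are all 10 genes, of each other list the up to 3 genes with the lowest p, for Lyz2 and Lgals3 the 5 most correlated genes, and controls; other names were added after their values were seen. Alternatives changed the pseudocount (1, 64), the filter (none, 60th percentile), the normalization, the prior and the arrays used.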

Additional observations from a re-analysis of the deposited data

Results flagged for a closer look

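Adgre1, the gene of the macrophage surface receptor EMR1, was singled out because the 3 tumors differed from each other when the array number was a block (adjusted p = 0.00651 in limma), with tumor 1 highest on arrays of both numbers. Each tumor is 1 mouse and the error is the spread between duplicate arrays, so this does not separate Adgre1 from ordinary differences between animals, and 787 of 14897 probe sets were called in the same way. Without the block, the same test gave an adjusted p of 0.577.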

How the results depend on the processing

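For tumors against parental cells, the count of 5 probe sets called was 3 with no filter, 1 with the replicate block, 1 with arrays of number 1 alone, 2 with number 2 alone, and 1 to 5 when a tumor or an array was left out. Over all probe sets the count of 104 was 45 with a pseudocount of 64, 22 with no filter, 65 with 1 probe set a gene, 5 and 12 with number 1 or number 2 alone, and 9 to 109 when a tumor or an array was left out. The replicate block changed the members called in single tumors to 6 in tumor 1 and 3 in tumor 3 (1 each without it). For differences among tumors it changed 0 to 1, and 188 of all probe sets to 787.

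For array 2 minus array 1 in tumors, the count of 7 was 0 with a pseudocount of 1, no filter or a trended prior, and 0 to 4 without 1 tumor. Over all probe sets the count of 848 was 0 with these 3 settings, 2030 with a pseudocount of 64, 1917 with the 60th percentile, 2595 over all 4 sources, and 0 to 138 without 1 tumor. The cause was not tested.

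For Csf1r alone the sign turned: 1419872_at had 0.70 with number 1 alone and -2.84 to 1.54 when a tumor or an array was left out, and 0.11 in tumor 2 with a pseudocount of 1; 1419873_s_at had -1.92 to 0.299 in those fits; 1423593_a_at had 0.0699 with number 1 alone and -0.853 to 0.355 in those fits. The positive ends are those without parental replicate 2. Lgals3 was called in 21 of 22 alternatives, Lyz2 in 16 of 22 and Cd14 in 11 of 22. Lyz1 was called in 18 of 22 with 1436996_x_at and in 16 of 21 with 1439426_x_at. With no filter the adjusted p of Lgals3 was 0.0722 in limma. Dim signals limit Mpeg1, C1qa and C1qb, for which no change can be read.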
